A study of Mus musculus with 6 samples.

Results

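Keratins are the intermediate filament proteins of epithelial cells. The genes described here are the protein-coding mouse genes whose symbol is Krt followed by a number and at most 1 letter, so that the keratin-associated protein genes of hair are left out. There were 53 such genes among the 54532 gene IDs with deposited values, and 10 of them had a mean of at least 0.5 FPKM (fragments per kilobase of exons, scaled to a fixed number of fragments per library) over the 6 tumors. The series holds 3 tumors of NeuT/ATTAC mice given IgG and 3 tumors of such mice given an anti-PD-1 mAb, and values are listed below in the order of their replicate numbers. These mice carry MMTV-NeuT, in which the MMTV promoter drives Erbb2 in mammary epithelium, and FAT-ATTAC, by which AP20187 ablates adipose tissue and induces fibrosis, on the FVB strain. In both groups AP20187 was given at 0.4 mg/kg starting at 6 weeks of age, and either antibody was given at 100 μg 2 times per week from 8 weeks of age, so that all tumors come from mice with induced fibrosis and no untreated tumor is part of the comparison. The labels give 1 library per sample and do not name the animal, and a legend in the study describes the RNA of several tumors of a group as pooled. Each library is called a tumor below, although it may hold RNA of more than a single tumor, and the p-values measure the spread between these libraries.

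A keratin filament is built from pairs of an acidic type I and a basic type II keratin, and neither type forms a filament alone. In the mammary gland, Krt8 (type II) and Krt18 (type I), with Krt7 (type II) and Krt19 (type I), mark the luminal cells that line the ducts and alveoli. Krt5 (type II) and Krt14 (type I), with Krt15 and Krt17 (type I), mark the basal and myoepithelial layer. Most other keratins belong to the suprabasal epidermis, to the hair shaft and its sheaths, or to other stratified epithelia.

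Of the 53 genes, 27 are type I, 25 are type II, and Krt222 is a type I-like gene. On GRCm38 the type II genes lie on chromosome 15 between 101347444 and 102032027, a span that also holds the type I gene Krt18, and the other 26 type I genes lie with Krt222 on chromosome 11 between 99232761 and 100269871. Among the 10 genes at or above 0.5 FPKM, 6 were type I and 4 type II. They were, from the highest mean down, Krt18, Krt8, Krt7, Krt23, Krt19, Krt14, Krt10, Krt5, Krt71 and Krt17. Krt17 lay just inside the limit with a mean of 0.507 FPKM, and Krt80 lay just outside with 0.398 FPKM.

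Stretches before the annotated starts of the main luminal pair and of Krt5 are shown because the luminal and basal levels turn on these genes. RefSeq (GRCm38.p6) windows of 250 bases before a start were at hand for 36 of the 53 keratins, and for Krt19, Krt17 and Krt15 none was. In 34 of the 36 the RefSeq start lay within 150 bases of the annotated 5′ end of the gene. The starts used for Krt14 and Krt7 lay 1518 and 1360 bases inside their genes, so these windows are not promoters of the annotated start and are left out. Each stretch is printed 5′ to 3′ on the strand of its gene and stops at the first base of an annotated exon. Capitals mark a match to any of 5 motifs, each searched on both strands. The AP-2 site was searched as GCCNNNGGC. The GC box was searched as GGGCGG. For the TATA box the letters TATAAA were used. For the AP-1 site the letters were TGANTCA, and the remaining box is named by its letters, CCAAT.
Krt18, chr15:102027966-102028179, plus strand: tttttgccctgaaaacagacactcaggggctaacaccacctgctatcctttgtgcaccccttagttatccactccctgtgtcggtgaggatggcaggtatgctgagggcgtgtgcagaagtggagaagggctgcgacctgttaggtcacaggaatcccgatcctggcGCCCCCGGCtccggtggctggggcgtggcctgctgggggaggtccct
Krt8, chr15:102004483-102004592, minus strand: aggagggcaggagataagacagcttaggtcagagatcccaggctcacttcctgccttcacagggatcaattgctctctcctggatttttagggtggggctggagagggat
Krt5, chr15:101712906-101713155, minus strand: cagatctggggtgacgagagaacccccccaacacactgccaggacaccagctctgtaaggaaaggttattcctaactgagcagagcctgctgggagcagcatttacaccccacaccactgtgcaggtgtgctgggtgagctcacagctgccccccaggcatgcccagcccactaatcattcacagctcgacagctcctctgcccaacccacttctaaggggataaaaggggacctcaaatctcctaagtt
In the whole windows, Krt18 held 1 AP-2 match, which starts 83 bases before the RefSeq start, and the windows of Krt8 and Krt5 held no match to any of the 5 motifs. Over all 27025 genes with a window, a GC box was found in 32.9%, an AP-2 match in 13.6%, a TATA box in 13.0%, a CCAAT box in 34.5% and an AP-1 match in 6.87%. Among the 34 keratin windows at the annotated start, 17 held a TATA box, 14 a CCAAT box (41.2%), 4 an AP-2 match (11.8%), 1 a GC box and 1 an AP-1 match. The GC content of the whole windows was 60.4% for Krt18, 58.0% for Krt8 and 56.0% for Krt5, where the median gene had 52%. Of the 250 bases, 140 for Krt8 and 36 for Krt18 lie in annotated exons. The window values of these genes are therefore not those of the printed stretch alone. These matches are a description of the letters and were not related to the levels below.

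The reads behind the values could be recovered, because FPKM times exon length fell on whole multiples of 1 read (within 0.1) for 97.0% to 97.3% of detected values per tumor and for all 53 keratins. The recovered reads came to between 21075641 and 23852764 per tumor. At this depth, 3 reads on Krt5 (2197 exon bases) corresponded to between 0.0532 and 0.0615 FPKM. The FPKM values given here were divided by median-of-ratios factors between 1.00 and 1.01.

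Keratin RNA in these tumors was almost entirely Krt8 and Krt18. Krt18 (ENSMUSG00000023043, chromosome 15 from 102028180 to 102032027) had 952, 704 and 678 FPKM in the IgG tumors and 754, 889.6 and 1377 FPKM in the anti-PD-1 tumors. Krt8 (ENSMUSG00000049382, chromosome 15 from 101996698 to 102004482) had 684, 538 and 426 FPKM in the IgG tumors and 646, 551 and 1035 FPKM in the anti-PD-1 tumors. Anti-PD-1 replicate 3 was the highest tumor and IgG replicate 3 the lowest for both genes, and the other tumors of the groups overlapped. By FPKM, Krt18 ranked between 13 and 43 and Krt8 between 27 and 60 among 21995 protein-coding genes in single tumors. Together they made up between 91.4% and 97.6% of the summed FPKM of all keratins, and all keratins made up between 0.387% and 0.702% of the FPKM of a tumor.

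**Figure D1:**
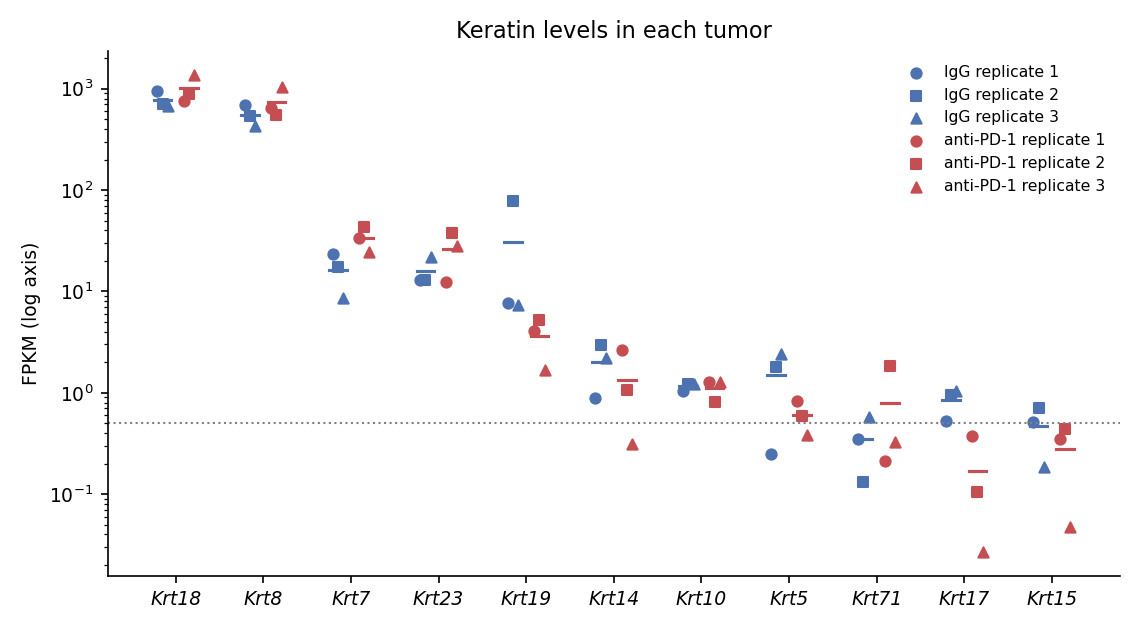
FPKM (log axis) of the 10 keratins with a mean of at least 0.5 FPKM and of Krt15, with a point for each tumor, a bar for the mean of each group (n = 3) and a dotted line at 0.5 FPKM. Krt18 and Krt8 lie between 426 and 1377 FPKM, Krt19 reaches 77.3 FPKM in IgG replicate 2, and the basal keratins stay below 3 FPKM.

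The partners kept a narrow ratio. The FPKM of Krt18 divided by that of Krt8 was 1.39, 1.31 and 1.59 in the IgG tumors and 1.17, 1.61 and 1.33 in the anti-PD-1 tumors, while the level of either gene varied by 2.03-fold (Krt18) and 2.43-fold (Krt8) between the highest and the lowest tumor. Summed over all type I and all type II genes the ratio was between 1.14 and 1.62, with more type I than type II FPKM in all 6 tumors. The type I sum ran from 712 FPKM in IgG replicate 3 to 1408 FPKM in anti-PD-1 replicate 3, and the type II sum from 439 to 1062 FPKM in the same tumors. A processed pseudogene of Krt8 on chromosome 7, Krt8-ps, had between 16 and 67 reads per tumor, against 20576 or more on Krt8.

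Behind this pair stood Krt7, Krt23 and Krt19, with means between 17.2 and 25.2 FPKM. Their order was not fixed, since Krt7 lay above Krt23 in 4 of 6 tumors and Krt23 above Krt19 in 5 of 6, with overlapping ranges. Krt8, the lower of the main pair, lay above Krt7 in all 6 tumors without overlap. The value of Krt7 depends on the length used. Its merged exons, by which the values fell on whole reads, sum to 7049 bases over 5 transcripts, and rescaled to the 4094 bases of the mRNA with the longest coding part its mean would be 43.4 FPKM. With that length for all keratins, Krt80 and Krt79 would also pass 0.5 FPKM, making 12 genes.

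Krt7 (ENSMUSG00000023039, chromosome 15 from 101411043 to 101430313) had 23.2, 17.5 and 8.60 FPKM in the IgG tumors and 33.5, 43.5 and 24.8 FPKM in the anti-PD-1 tumors. All 3 anti-PD-1 tumors lay above the highest IgG tumor, by a small margin for anti-PD-1 replicate 3. Means were 33.9 ± 9.36 (SD, n = 3) FPKM in anti-PD-1 and 16.4 ± 7.35 (SD, n = 3) FPKM in IgG tumors. The difference on the log2(FPKM + 1) scale was 1.07 (standard error 0.36, 95% confidence interval 0.21 to 1.92, unadjusted p = 0.0213 and adjusted p = 0.362 from limma over all 15069 genes tested). An exact permutation test of 3 tumors against 3 gave p = 0.1, the smallest it allows. The log2 difference was 0.69 without IgG replicate 3, and the unadjusted limma p was 0.0516 without anti-PD-1 replicate 1 and 0.0786 without anti-PD-1 replicate 2. Between 1494 and 7478 reads stood behind these values. Gm671, an antisense gene with between 34 and 179 reads per tumor, shares 77 bases with Krt7 exons (1.09% of them).

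Krt19 went the other way. Krt19 (ENSMUSG00000020911, chromosome 11 from 100140810 to 100148665) had 7.77, 77.3 and 7.39 FPKM in the IgG tumors and 4.08, 5.23 and 1.69 FPKM in the anti-PD-1 tumors. All 3 anti-PD-1 tumors lay below all IgG tumors, and IgG replicate 2 stood far above the other 5, with 3467 reads where the others had between 75 and 338. Means were 3.67 ± 1.81 (SD, n = 3) FPKM in anti-PD-1 and 30.8 ± 40.3 (SD, n = 3) FPKM in IgG tumors. The log2 difference was -2.03 (standard error 0.85, 95% confidence interval -4.02 to -0.03, unadjusted p = 0.0471 and adjusted p = 0.404 from limma), and the exact permutation p was 0.1. Without IgG replicate 2 the log2 difference was -0.96 with an unadjusted limma p of 0.0421. With all 6 tumors the unadjusted p was 0.0672 with no filter on low FPKM, 0.0504 with quantile normalization, 0.0502 with eBayes without the trend and 0.0682 with voom. It was 0.0799, 0.0686 and 0.137 without anti-PD-1 replicates 1, 2 and 3 in turn. In IgG replicate 2 Krt19 held 5.69% of the keratin FPKM, and in the other 5 tumors between 0.0685% and 0.642%.

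Krt23 (ENSMUSG00000006777, chromosome 11 from 99477974 to 99493137), a type I keratin of simple epithelia, had 13.0, 12.8 and 22.04 FPKM in the IgG tumors and 12.5, 37.8 and 27.8 FPKM in the anti-PD-1 tumors. The lowest and the highest value both belonged to the anti-PD-1 group. The log2 difference was 0.59 (standard error 0.40, 95% confidence interval -0.36 to 1.54, adjusted p = 0.581 from limma). Without anti-PD-1 replicate 1 it was 1.02, with an unadjusted p of 0.0120, whereas omitting anti-PD-1 replicate 2 gave 0.26 (unadjusted p = 0.533). For Krt8 the log2 difference was 0.41 (95% confidence interval -0.32 to 1.14, adjusted p = 0.613 from limma) and for Krt18 it was 0.34 (95% confidence interval -0.36 to 1.04, adjusted p = 0.658 from limma). Without anti-PD-1 replicate 3 these were 0.15 for Krt8 and 0.092 for Krt18. The intervals of Krt8 and Krt18 include no difference and leave room for a change in either direction.

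**Figure D2:**
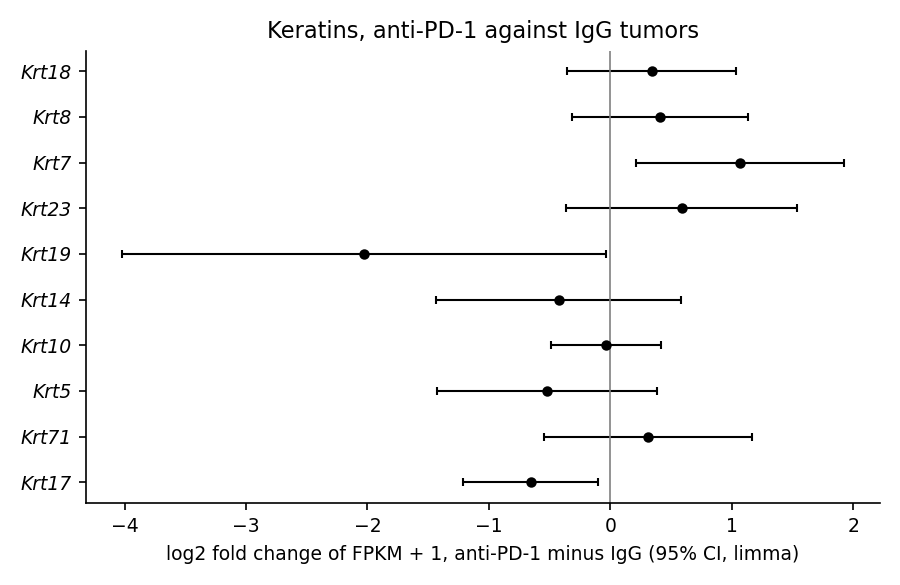
Difference in log2(FPKM + 1) between anti-PD-1 and IgG tumors (n = 3 each) for the 10 keratins tested, with the 95% confidence interval from limma. The intervals of Krt7 (0.21 to 1.92), Krt19 (-4.02 to -0.03) and Krt17 (-1.21 to -0.10) exclude 0 before adjustment, and those of the other 7 include it.

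The basal keratins were present at the level of a few FPKM or less. Krt14 (ENSMUSG00000045545, chromosome 11 from 100203162 to 100207548) had 0.897, 2.96 and 2.19 FPKM in the IgG tumors and 2.66, 1.07 and 0.310 FPKM in the anti-PD-1 tumors. Its partner Krt5 (ENSMUSG00000061527, chromosome 15 from 101707070 to 101712898) had 0.246, 1.79 and 2.42 FPKM in the IgG tumors and 0.834, 0.597 and 0.381 FPKM in the anti-PD-1 tumors. For both genes the groups overlapped, and the 2 lowest tumors included IgG replicate 1 and anti-PD-1 replicate 3. The ratio of Krt14 to Krt5, between 0.812 and 3.65, varied more widely than that of Krt18 to Krt8, on between 12 and 131 reads per tumor for each gene. Log2 differences were -0.42 for Krt14 (95% confidence interval -1.43 to 0.58, adjusted p = 0.711 from limma) and -0.52 for Krt5 (95% confidence interval -1.42 to 0.39, adjusted p = 0.609 from limma). With 0.1 added in place of 1 the log2 differences were -0.80 for Krt14 and -0.80 for Krt5, and with voom on recovered reads -0.89 and -0.86. Without IgG replicate 1 the log2 difference of Krt5 was -0.95 with an unadjusted p of 0.00740, and without IgG replicate 3 it was -0.23 (unadjusted p = 0.580). That of Krt14 was -0.81 without anti-PD-1 replicate 1, -0.73 without IgG replicate 1, -0.20 without IgG replicate 2 and, when anti-PD-1 replicate 3 was omitted, -0.067.

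Krt17 (ENSMUSG00000035557, chromosome 11 from 100256217 to 100261029), which is also induced in wounded and stressed epithelium, had 0.523, 0.960 and 1.05 FPKM in the IgG tumors and 0.377, 0.106 and 0.0270 FPKM in the anti-PD-1 tumors. The groups did not overlap, on 18, 36 and 40 reads in the IgG and 15, 4 and 1 reads in the anti-PD-1 group. Means were 0.843 FPKM in IgG and 0.170 FPKM in anti-PD-1 tumors, so Krt17 passed the 0.5 FPKM filter only through the IgG group. The log2 difference was -0.66 (standard error 0.24, 95% confidence interval -1.21 to -0.10, unadjusted p = 0.0266 and adjusted p = 0.370 from limma, exact permutation p = 0.1). This test is not separate from the entry of Krt17 into it. At this level the 1 added to the FPKM sets the size, and with 0.1 in its place the log2 difference was -1.98, and with voom on recovered reads it was -2.73. The unadjusted p was 0.0568 without IgG replicate 2, 0.0772 without IgG replicate 3, 0.0517 without anti-PD-1 replicate 2 and 0.0753 without anti-PD-1 replicate 3. Krt15 (ENSMUSG00000054146) was under the 0.5 FPKM limit and was not tested, with values from 0.184 to 0.702 FPKM in IgG and from 0.0474 to 0.441 FPKM in anti-PD-1 tumors. Keratins of a cluster resemble each other in sequence, and whether Krt14, Krt15 and Krt17 share reads was not tested.

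Luminal keratins exceeded basal keratins in every tumor. The summed FPKM of Krt7, Krt8, Krt18 and Krt19 was 1666, 1337 and 1121 in the IgG tumors and 1438, 1489 and 2439 in the anti-PD-1 tumors. The summed FPKM of Krt5, Krt14, Krt15 and Krt17 was 2.18, 6.42 and 5.84 in the IgG tumors and 4.22, 2.21 and 0.765 in the anti-PD-1 tumors, on between 36 and 287 reads. The luminal sum was therefore 766, 208 and 192 times the basal sum in the IgG tumors and 340.4, 672 and 3188 times in the anti-PD-1 tumors. Anti-PD-1 replicate 3 had the highest luminal and the lowest basal sum, IgG replicate 1 lay among the anti-PD-1 tumors, and the groups overlapped. On the log2 scale the mean ratio was 9.81 in anti-PD-1 and 8.29 in IgG tumors, a difference of 1.53 against a pooled SD of 1.41, and 0.61 without anti-PD-1 replicate 3. As RNA of whole tumors was measured, fewer cells of a type and less RNA per cell cannot be told apart. The ratio of Krt7 to Krt8, both luminal type II keratins, was 0.0339, 0.0326 and 0.0202 in the IgG tumors and 0.0519, 0.0789 and 0.0239 in the anti-PD-1 tumors, and the groups overlapped.

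**Figure D3:**
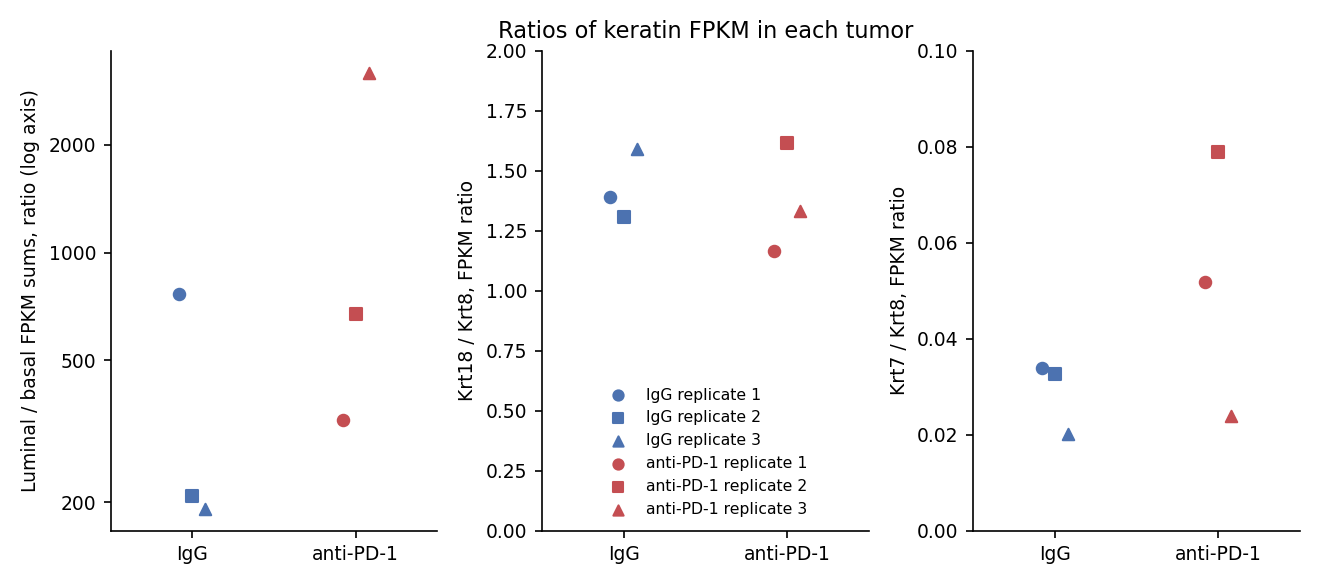
Ratios of FPKM in each tumor by group: the luminal sum (Krt7, Krt8, Krt18 and Krt19) over the basal sum (Krt5, Krt14, Krt15 and Krt17) on a log axis, Krt18 over Krt8 on a linear axis from 0, and Krt7 over Krt8 on a linear axis from 0. The luminal to basal ratio runs from 192 to 3188 with overlapping groups, Krt18 over Krt8 stays between 1.17 and 1.61, and Krt7 over Krt8 runs from 0.0202 to 0.0789 with overlapping groups.

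Of the remaining 2 genes above the limit, Krt10 (ENSMUSG00000019761), a type I keratin of the suprabasal epidermis, was even across the tumors, between 0.814 and 1.29 FPKM. Its log2 difference was -0.03 (95% confidence interval -0.48 to 0.42, adjusted p = 0.958 from limma), on between 42 and 70 reads. Its usual type II partner Krt1 stayed at or below 0.0468 FPKM. Krt71 (ENSMUSG00000051879), a type II keratin of the inner root sheath of hair, had 0.350, 0.132 and 0.575 FPKM in the IgG tumors and 0.214, 1.86 and 0.326 FPKM in the anti-PD-1 tumors. Anti-PD-1 replicate 2, with 99 reads, carried the mean of Krt71, and the log2 difference of 0.31 (adjusted p = 0.755 from limma) became -0.080 without it, and was 0.63 with 0.1 added in place of 1 and 0.73 with voom.

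The other 43 keratins were low or were listed at 0. In 22 of them the value was 0 in all 6 tumors, and in another 7 no tumor had more than 3 reads. The highest value of any of the 43 genes in a single tumor was 0.702 FPKM. Of 16 hair shaft keratins none passed the limit and 11 were listed at 0, and the highest value was 0.647 FPKM for Krt87 in anti-PD-1 replicate 2. Of 8 keratins of the hair follicle sheaths 5 were listed at 0. Of the 3 keratins of wounded and hyperproliferative epithelium, Krt6b and Krt16 were listed at 0 and Krt6a reached 0.220 FPKM. Among keratins of internal stratified epithelia and cornea, Krt4 reached 0.271 FPKM in IgG replicate 2 (14 reads) and Krt76 reached 0.217 FPKM in anti-PD-1 replicate 3 (12 reads).

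No keratin had a limma adjusted p under 0.05, as no gene did (0%), while voom on recovered reads called 1 gene of 14386 and no keratin. Of the 10 tested keratins, 3 had an unadjusted p under 0.05, where 12.3% of all 15069 genes did. These 3 were also those past both limits used here (unadjusted p under 0.05, 1.5-fold or more), which 8.43% of all genes passed. Of them, 1 (Krt7) was higher, where 3.9% of all genes were, and 2 (Krt19 and Krt17) were lower, where 4.53% were. Krt17 was tested only because of its IgG values (mean 0.843 FPKM, against 0.170 FPKM in anti-PD-1 tumors). Its place among the lower genes, here and in the next count, is therefore not separate from its entry into the test. The groups did not overlap in the same 3 genes, 1 higher (9.3% of all genes) and 2 lower (8.75% of all genes), with 18.1% of all genes in either direction. Without anti-PD-1 replicate 2 no keratin passed both limits, and without anti-PD-1 replicate 3 none was lower. The lower count was 1 without IgG replicate 2, IgG replicate 3 or anti-PD-1 replicate 1, and 3 without IgG replicate 1. Whether the share among keratins differs from that over all genes was not tested. The median log2 difference was 0.14 over the 10 keratins, 0.38 over the 4 luminal genes and -0.52 over the 3 tested basal genes, and 0.01 over all genes tested. By position, 4 of the 5 tested keratins on chromosome 15 had a log2 difference above 0, and 4 of the 5 on chromosome 11 had one below 0. The median over all tested genes was 0.17 on chromosome 15 (630 genes) and 0.07 on chromosome 11 (1252 genes).

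Markers of luminal epithelium other than keratins ranged from very high to low. Of 11 such genes 10 were tested, and 5 were above 0 in log2 difference (median -0.03). Epcam, an adhesion molecule of simple epithelia, was the highest, with 878, 854 and 683 FPKM in the IgG tumors and 986, 1142 and 1115 FPKM in the anti-PD-1 tumors. It was higher in the anti-PD-1 group without overlap, in the direction of Krt7 (log2 difference 0.43, unadjusted p = 0.0906 and adjusted p = 0.462 from limma). Of the 10 tested markers, 1 was higher and 2 were lower without overlap, where 9.3% and 8.75% of all genes were. The tight junction gene Cldn3 followed, between 253 and 490 FPKM, with overlapping groups. Gata3, a transcription factor of luminal cells, was the 1 marker past both limits, where 4.53% of all genes were lower and 3.9% higher, with 37.7, 47.8 and 57.0 FPKM in the IgG tumors and 29.3, 28.8 and 30.6 FPKM in the anti-PD-1 tumors (log2 difference -0.65, adjusted p = 0.344 from limma). Its direction was that of Krt19 and opposite to that of Krt7. Cldn7, Cdh1, Cldn4 and Elf5 had means of 89.5, 86.3, 80.8 and 44.2 FPKM with overlapping groups. Foxa1 and 3 hormone receptor genes were lower in level. The genes of this list other than Epcam, Cldn3, Cldn7 and Gata3 were picked out after their values were seen. Foxa1, a transcription factor of hormone-sensing luminal cells, had 0.339, 2.11 and 0.476 FPKM in the IgG tumors and 0.0117, 0.320 and 0.0377 FPKM in the anti-PD-1 tumors, without overlap (log2 difference -0.72, adjusted p = 0.451 from limma). With means of 0.976 FPKM in IgG and 0.123 FPKM in anti-PD-1 tumors, Foxa1 was tested only because of its IgG values. Its lower value is therefore not separate from its entry into the test. Of the hormone receptor genes, Prlr lay between 7.02 and 13.6 FPKM, Esr1 lay between 0.519 and 1.94 FPKM, and Pgr, not tested, reached at most 0.469 FPKM.

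Of 10 basal and myoepithelial markers other than keratins, 8 were tested, 2 were higher past both limits (3.9% of all genes) and none was lower (4.53% of all genes), with a median of 0.09. Trp63, the transcription factor that defines basal epithelium, was below the limit with values from 0.135 to 0.779 FPKM. Itgb4, a hemidesmosome integrin to which keratins are anchored, had 50.6, 20.6 and 29.8 FPKM in the IgG tumors and 59.3, 65.7 and 56.0 FPKM in the anti-PD-1 tumors (log2 difference 0.91, adjusted p = 0.357 from limma). Mylk, a kinase of contractile cells, was at 1.51 ± 0.307 (SD, n = 3) FPKM in IgG and 4.02 ± 2.32 (SD, n = 3) FPKM in anti-PD-1 tumors (log2 difference 0.90, adjusted p = 0.387 from limma). The groups did not overlap for Itgb4 and overlapped for Mylk. Of the 8 tested markers 5 had log2 differences above 0, among them Acta2 (0.55), Snai2 (0.14) and Cdh3 (0.04), and 3 had log2 differences below 0, like Krt17. Oxtr, the oxytocin receptor, had 4.60, 5.73 and 4.19 FPKM in the IgG tumors and 0.822, 2.70 and 4.88 FPKM in the anti-PD-1 tumors (log2 difference -0.77, adjusted p = 0.472 from limma). Cnn1, a contractile protein picked out after its values were seen, had 0.659, 0.484 and 0.994 FPKM in the IgG tumors and 0.185, 0.404 and 0.428 FPKM in the anti-PD-1 tumors, without overlap (log2 difference -0.35, adjusted p = 0.546 from limma). With means of 0.712 FPKM in IgG and 0.339 FPKM in anti-PD-1 tumors, it was tested only because of its IgG values. Of the 8 tested markers, 1 was higher and 1 lower without overlap, where 9.3% and 8.75% of all genes were. Acta2, which fibroblasts also express, lay between 10.2 and 36.8 FPKM.

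Keratin filaments are tied to cell junctions by desmosomes and linker proteins. Of 20 desmosome and linker genes, 17 were tested and 13 were above 0 in log2 difference (median 0.10), where 50.8% of all genes were above 0. Past both limits 2 were higher (3.9% of all genes) and none lower (4.53% of all genes). Dsg3, a desmosomal cadherin of stratified epithelia, had 1.94, 0.312 and 0.306 FPKM in the IgG tumors and 4.74, 2.60 and 3.80 FPKM in the anti-PD-1 tumors (log2 difference 1.43, adjusted p = 0.344 from limma). Perp, a desmosomal membrane protein and the highest of the list, had 74.7, 66.0 and 93.6 FPKM in the IgG tumors and 117, 116 and 170.0 FPKM in the anti-PD-1 tumors (log2 difference 0.77, adjusted p = 0.344 from limma). Ppl, a plakin linker, was also higher without overlap, below the 1.5-fold limit (log2 difference 0.34, unadjusted p = 0.0437 and adjusted p = 0.397 from limma). Of the 17 tested genes, 3 were higher and none lower without overlap, where 9.3% and 8.75% of all genes were. The plaque protein Jup, the next by level, lay between 59.9 and 85.6 FPKM with overlapping groups (log2 difference 0.01). Of 15 other intermediate filament genes 8 were tested, and 1 of them, Vim, was higher past both limits (3.9% of all genes; log2 difference 1.54, adjusted p = 0.344 from limma) while none was lower (median 0.26). Nes, the highest of this list by mean, had 63.9, 70.9 and 86.02 FPKM in the IgG tumors and 63.3, 22.7 and 61.5 FPKM in the anti-PD-1 tumors, lower without overlap by a small margin (log2 difference -0.70, unadjusted p = 0.115 and adjusted p = 0.494 from limma). It was the 1 lower gene without overlap among the 8 tested (8.75% of all genes), where 2 were higher (9.3% of all genes).

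**Figure D4:**
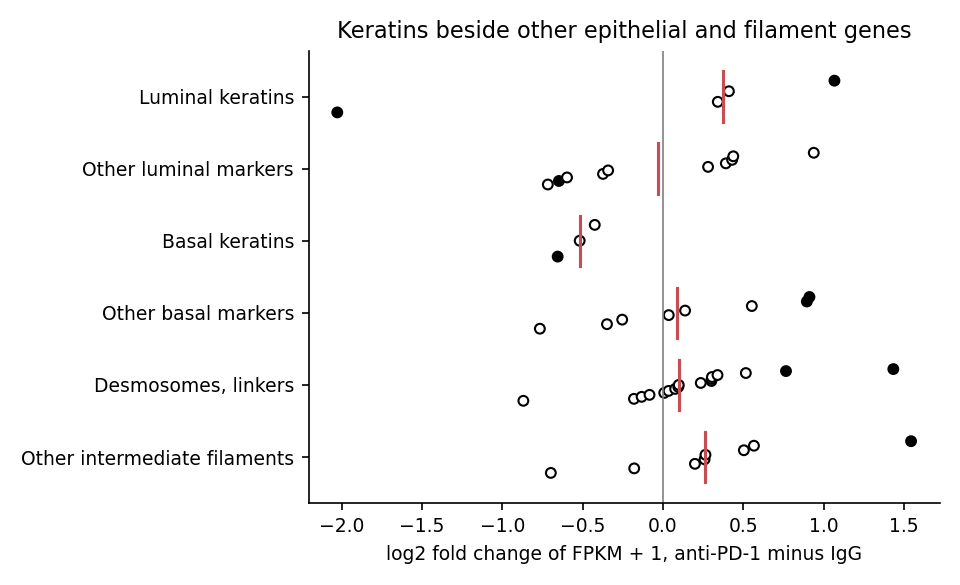
Difference in log2(FPKM + 1) between anti-PD-1 and IgG tumors for each tested gene of 6 lists, with a red line at the median of the list and filled points for genes past both limits (unadjusted p under 0.05, 1.5-fold or more). The luminal keratins hold a filled point on either side of 0 (Krt7 at 1.07 and Krt19 at -2.03), and the basal keratins lie below 0 (median -0.52) while the other basal markers lie on both sides (median 0.09).

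Markers of skin and of other cells are given beside the keratins because these share the tissue. Of 12 epidermal genes 2 passed the limit, and the list summed to between 2.86 and 4.23 FPKM in IgG and between 3.09 and 5.77 FPKM in anti-PD-1 tumors, with Ivl, Flg2 and Sprr1b listed at 0 in all tumors. Of 6 hair follicle genes 1 passed, with sums between 0.683 and 2.14 FPKM that were mostly Msx2. In anti-PD-1 replicate 2, where Krt71 was highest, the list without Msx2 summed to 0.0832 FPKM, all of it Padi3, within the range of 0 to 0.250 FPKM over the 6 tumors. Padi3 itself was also highest in that tumor, with 0.0118 FPKM in IgG replicate 3 and 0 in the other tumors. Whether it goes with Krt71 was not tested. Mesothelial genes, a further keratin-rich cell type, summed to at most 0.201 FPKM. The 6 fibroblast genes summed to between 75.9 and 233 FPKM in IgG and between 90.0 and 337 FPKM in anti-PD-1 tumors. Of the 6 leukocyte genes 4 were tested. Past both limits 1 of them, Cd68, was higher (3.9% of all genes; log2 difference 0.76, adjusted p = 0.344 from limma) and none was lower (4.53% of all genes). The 6 leukocyte genes summed to between 33.9 and 41.9 FPKM in IgG and between 45.3 and 60.7 FPKM in anti-PD-1 tumors. The separation came from Cd68, since without it the sums were 19.2, 26.9 and 20.2 FPKM in the IgG tumors and 23.2, 15.95 and 31.6 FPKM in the anti-PD-1 tumors, and Ptprc, the general leukocyte marker, had a log2 difference of 0.03. The 3 endothelial genes summed to between 7.15 and 17.0 FPKM and the 3 adipocyte genes to at most 1.41 FPKM in any tumor. The part of these cells in the keratin differences was not tested.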

How the data were processed

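RNA libraries labelled as 3 IgG and 3 anti-PD-1 tumors were sequenced, which may be pools, and groups and replicate numbers were taken from the sample titles. By the paper's methods, the authors checked reads with FastQC (0.11.9), trimmed them with Cutadapt (3.5) and aligned and counted them with RSEM (1.3.1) on mm10 (Ensembl release 99, Bowtie2 2.4.1), testing with DESeq2 (1.36.0). The authors deposited FPKM values, and how the FPKM was made, or whether strand was used, is not given in the sources used here. Genes were named with GENCODE release M21 (GRCm38), which matched 54495 of 54532 IDs.

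Each library was scaled by its median-of-ratios factor and log2(FPKM + 1) computed. Genes with a mean deposited FPKM of at least 0.5 (15069) entered a limma fit (3.58.1, under R 4.3.3, eBayes with intensity trend, two-sided, Benjamini-Hochberg). A count test such as that of the study was not used as the main test, since FPKM values are not counts. The 5 motifs were searched in RefSeq windows of 250 bases, and keratin windows over 150 bases from the annotated gene start were left out, a limit set after seeing the distances. All keratins with a mean of at least 0.5 FPKM are named, with the luminal and basal genes and, of the other lists, the genes past both limits and up to 3 of the highest. Genes named outside this rule (Krt80, Krt79, Krt87, Krt1, Krt4, Krt76, Krt6a, Krt6b, Krt16, Krt222, Trp63, Foxa1, Prlr, Cdh1, Cldn4, Elf5, Snai2, Cdh3, Cnn1, Esr1, Pgr, Ppl, Ptprc, Padi3, Flg2, Ivl, Sprr1b, Krt8-ps and Gm671) were picked after their values were seen. The keratins and the lists were chosen with earlier results of these data known. Intervals and read limits cover counting error or the spread of these samples only. The alternatives tried were 0.1 in place of 1, other filters, FPKM as deposited, quantile normalization, eBayes without trend, a replicate block, limma's voom on recovered reads, other keratin lists and leaving out each tumor. Tables and plots were made in Python 3.11.15 (pandas 2.3.3, numpy 2.4.6, matplotlib 3.10.9).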

Additional observations from a re-analysis of the deposited data

How the results depend on the processing

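The count of keratins higher at both limits was 1 under every fit of all 6 tumors, and from 0 to 1 when single tumors were omitted, where it was Krt23 without anti-PD-1 replicate 1 and Krt7 otherwise. The count of lower keratins was 2 as reported and with 0.1 in place of 1 or FPKM as deposited. It was 1 (Krt17) with no filter on low FPKM, quantile normalization, eBayes without the trend or voom on recovered reads, 1 (Krt19) with a mean of at least 2 FPKM, where Krt17 was not tested, and between 0 and 3 with a tumor left out. The replicate block left 1 lower keratin (Krt19). Deviations of same-numbered tumors from the group means had correlations of -0.16, 0.0051 and 0.19, and those of differently numbered tumors ran from -0.26 to 0.24. IgG replicate 1 correlated best with anti-PD-1 replicate 2, and IgG replicate 3 with anti-PD-1 replicate 3. With 3 tumors per group the deviations sum to 0, so this check cannot decide whether the numbers pair the tumors. No keratin reached an adjusted p under 0.05 under any setting. Over all genes the adjusted count was 1 of 14386 with voom, 12 without IgG replicate 1 and 1 without IgG replicate 3. Without anti-PD-1 replicate 2 the log2 difference of Krt10 turned to 0.077 and that of Krt71 to -0.080, within ranges of -0.091 to 0.077 and of -0.080 to 0.54 over the 6 omissions.

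The count of keratins above the limit fell from 10 to 5 at a mean of 2 FPKM and to 6 at 0.5 FPKM in every tumor. With the mRNA length, chosen after seeing the data, it was 12. The log2 luminal to basal difference was between 0.61 and 2.23 with a tumor left out, 1.23 with Krt5 and Krt14 alone as basal, 1.54 with Krt8 and Krt18 alone as luminal and 0.40 as a mean of log2 values. The cause of these changes was not tested, except that fewer genes or tumors entered where a limit was raised or a tumor left out. The basal keratins rest on at most 131 reads per gene and tumor, Krt71 on at most 99 and Krt10 on at most 70.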
